A study of Mus musculus with 23 samples.

Results

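Apolipoprotein E and the genes that move cholesterol with it were followed through 4 steps of mouse blood cell formation in culture, with and without expression of the leukaemia fusion protein RUNX1-ETO. The genes were Apoe, Apoc1, Abca1, Abcg1, Lpl, Nr1h3 and Scarb1, which are 7 of the 20145 genes with a symbol on the array. A gene was identified by the RefSeq accession of its probe, and where it had several probes the one with the highest mean over all 23 arrays stood for it. The 7 genes were chosen by name with results of these data already known, and the measured value that the selection states is the mean intensity that picks the probe, so that the P values below describe them and are no independent support. All 7 genes were well above background on all 23 arrays and passed the filter on low values.

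Apolipoprotein E is a protein of lipoprotein particles that receives cholesterol from cells and is bound by lipoprotein receptors. The transporters ABCA1 and ABCG1 hand cellular cholesterol to such particles, and the nuclear receptor LXRα, encoded by Nr1h3, activates the genes of both transporters and of Apoe when it binds oxysterols. Macrophages use this route to dispose of cholesterol, and in blood progenitors cholesterol efflux is known for restraining their proliferation.

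The cells came from a mouse embryonic stem cell line, labelled strain C57BL/6, that carries human RUNX1-ETO under a doxycycline (Dox)-responsive promoter on a wild-type RUNX1 background, so that the uninduced controls carried the same transgene. Flk1+ cells were grown in blast culture, and haemogenic endothelium (HE, KIT+Tie2+CD41-), HE2 (KIT+Tie2+CD41+) and progenitors (KIT+Tie2-CD41+) were sorted at day 2, uninduced or after 0.1 µg/ml Dox from day 1. Myeloid progenitors were grown from KIT+CD41+ cells in medium with cytokines and taken at day 3, uninduced or after 12 h of 0.1 µg/ml Dox from day 2. Dox-treated cells without the transgene were not analysed here, so that an effect of Dox itself and of RUNX1-ETO cannot be told apart. Each group had 3 arrays, apart from 2 of uninduced and 2 of induced progenitors, and 1 further array of uninduced progenitors, labelled a technical replicate, was left out of the tests. The labels call most arrays biological replicates and do not say whether they were separate cultures, and P values measure the spread between these arrays.

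Levels are log2 intensities after quantile normalization, on which a step of 1 is a 2-fold change, and they were not compared between genes since probes differ in brightness. Differences were tested with limma, with Benjamini-Hochberg adjustment over 15202 genes, and a gene was called changed when its unadjusted P did not exceed 0.001 and its change was 2-fold or more. Between 48.8% and 78.4% of the spots of an array were well above background. Runx1t1, the mouse gene of the ETO part of the fusion, whose probe may also read the human transgene, lay above all uninduced arrays of a population on each of its induced ones, by 1.24 on the log2 scale in HE (adjusted P = 0.0155, not called), 2.08 in HE2, 2.06 in myeloid progenitors and 3.96 in progenitors. All 6 myeloid arrays lay on slide 3, scanned on the second day, with the further progenitor array and 1 of the induced progenitor arrays, and all other arrays lay on slides 1 and 2.

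Markers of other cells moved with Dox as well. Of 6 mesenchyme and smooth muscle markers, 3 were lower and 1 was higher in induced HE, with a summed level of 15.1 to 15.6 against 16.6 to 17.8 without Dox, and 4 were lower in induced HE2 (13.4 to 13.5 against 14.9 to 16.7). That sum was also lower in induced progenitors (12.46 to 13.97 against 14.21 to 14.64), with none of the 6 called, and overlapped in myeloid progenitors. The sum of 4 markers of undifferentiated ES cells was higher with Dox in progenitors (8.92 to 9.53 against 8.42 to 8.78), with neither of the 2 tested called, and overlapped in the other populations. In progenitors Nanog averaged 8.71 with and 7.78 without Dox, and Dppa5a 6.38 and 6.10. Pou5f1 averaged 5.43 and 5.72 and Zfp42 5.42 and 5.41. Of 9 tested macrophage markers, Mrc1 alone rose in each population, and 2 others fell in HE2 and 1 in progenitors and in myeloid progenitors. The sum over that list was higher with Dox in HE (12.29 to 12.92 against 11.56 to 12.02) and in HE2 (12.36 to 13.50 against 11.78 to 12.01), lower in progenitors (11.97 to 12.27 against 13.02 to 13.24) and overlapping in myeloid progenitors (14.1 to 14.7 against 14.5 to 15.3). Of 5 endothelial markers, 4 rose with Dox in myeloid progenitors, where the sum was 15.0 to 15.3 against 12.7 to 13.2, and Emcn rose in HE2, by 2.84, and in progenitors, by 3.42. The endothelial sums were also apart in HE2 (15.96 to 16.22 with against 15.00 to 15.31 without Dox) and in progenitors (14.59 to 15.05 against 13.79 to 13.84) and overlapped in HE. Erythroid sums were higher with Dox in HE (17.2 to 18.2 against 14.8 to 15.3), in HE2 (18.20 to 18.45 against 16.15 to 16.59) and progenitors (18.41 to 18.84 against 17.32 to 17.59) and adjoined each other in myeloid progenitors (19.20 to 19.44 against 19.44 to 19.64). Haematopoietic commitment markers summed lower with Dox in myeloid progenitors (13.94 to 14.12 against 14.46 to 14.70) and in progenitors (13.63 to 13.88 against 13.99 to 14.38). These sums overlapped in HE and HE2. Itga2b, the gene of CD41, read lower with Dox in HE (6.92 to 8.02 against 9.49 to 11.46). It was also lower in HE2 (7.73 to 10.75 against 11.19 to 12.51), while Spn read higher in HE (7.05 to 7.80 against 6.44 to 6.69). Of 7 markers of visceral endoderm, which makes apolipoproteins in the embryo, Alb, Ttr and Hnf4a had group means of at most 5.43, below the limit of 6.5 used for testing, while Foxa2 fell by 2.44 in HE and Cubn rose by 1.67 in HE2 and by 1.52 in myeloid progenitors. Foxa2 read lower with Dox in HE2 as well (6.33 to 7.08 against 8.20 to 9.55), so that the list went both ways there. The visceral endoderm list summed to 10.2 to 10.8 with and 10.7 to 12.1 without Dox in HE, and to 10.4 to 10.9 with and 9.91 to 10.5 without Dox in myeloid progenitors. Its sums overlapped in HE2 (9.90 to 10.52 against 9.65 to 10.33) and in progenitors (8.89 to 9.24 against 9.09 to 9.20). The part of these cells in the results below was not tested. In sorted bulk cells, fewer cells of a type and less RNA per cell cannot be told apart.

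RefSeq (GRCm38.p6) promoter windows, from 250 bases before to 50 after a start, matched 3 of the 7 genes, with 3 windows for Apoe, 2 for Nr1h3 and 1 for Abca1. Those of Apoc1, Abcg1, Lpl and Scarb1 were not used here. Both strands were searched for the RUNX core as TGTGGT, which is in 16.8% of all 32851 windows, and as TGTGGC, which is in 18.9%, for the LXR repeat of AGGTCA on both sides of NNNN, which is in 0.0152%, and, chosen after the sequences were seen, for TGACCG and TAACC on both sides of NTAG, the repeat through which LXR acts on the Abca1 promoter, which is in 0.00609%. TGTGGT and the LXR repeat were in 0 of the 6 windows, TGTGGC was in 1 window of Apoe, 39 bases before a start downstream of the one shown, and the repeat chosen later was in the Abca1 window, 67 bases before the start. A match is a description of the sequence and not of binding. The 250 bases before the start are shown for Abca1, with the repeat in capitals, and for the most upstream start of Apoe, both from the minus strand and written 5′ to 3′, since these genes moved in opposite directions in HE.
Abca1, chr4:53159896-53160145: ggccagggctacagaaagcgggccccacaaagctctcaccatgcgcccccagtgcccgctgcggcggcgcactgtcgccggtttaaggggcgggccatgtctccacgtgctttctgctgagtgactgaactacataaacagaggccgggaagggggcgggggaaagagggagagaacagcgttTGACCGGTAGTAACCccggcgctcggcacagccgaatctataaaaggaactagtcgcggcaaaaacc
Apoe, chr7:19699189-19699438: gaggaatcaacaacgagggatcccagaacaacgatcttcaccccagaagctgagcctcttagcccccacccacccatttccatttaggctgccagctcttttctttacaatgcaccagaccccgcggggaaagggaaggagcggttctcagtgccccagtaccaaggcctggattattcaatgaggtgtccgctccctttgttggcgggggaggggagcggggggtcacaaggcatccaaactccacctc

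In HE, 4 of the 7 genes were called, with Abca1, Abcg1 and Nr1h3 higher and Apoe lower, where 7.09% of all tested genes were called. In HE2, 2 of 7 were called, Abca1 and Abcg1, both higher, against 7.22% of all genes. Abcg1 alone was called in progenitors, where the share was 3.73%, and Apoe alone in myeloid progenitors, where it was 6.31%. The median change of the 7 genes was 1.12, 0.08, 0.08 and 0.32 on the log2 scale in these populations, beside a median over all genes between -0.04 and -0.01. The 4 comparisons use different arrays, and the plot of changes with Dox sets them side by side.

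**Figure D1:**
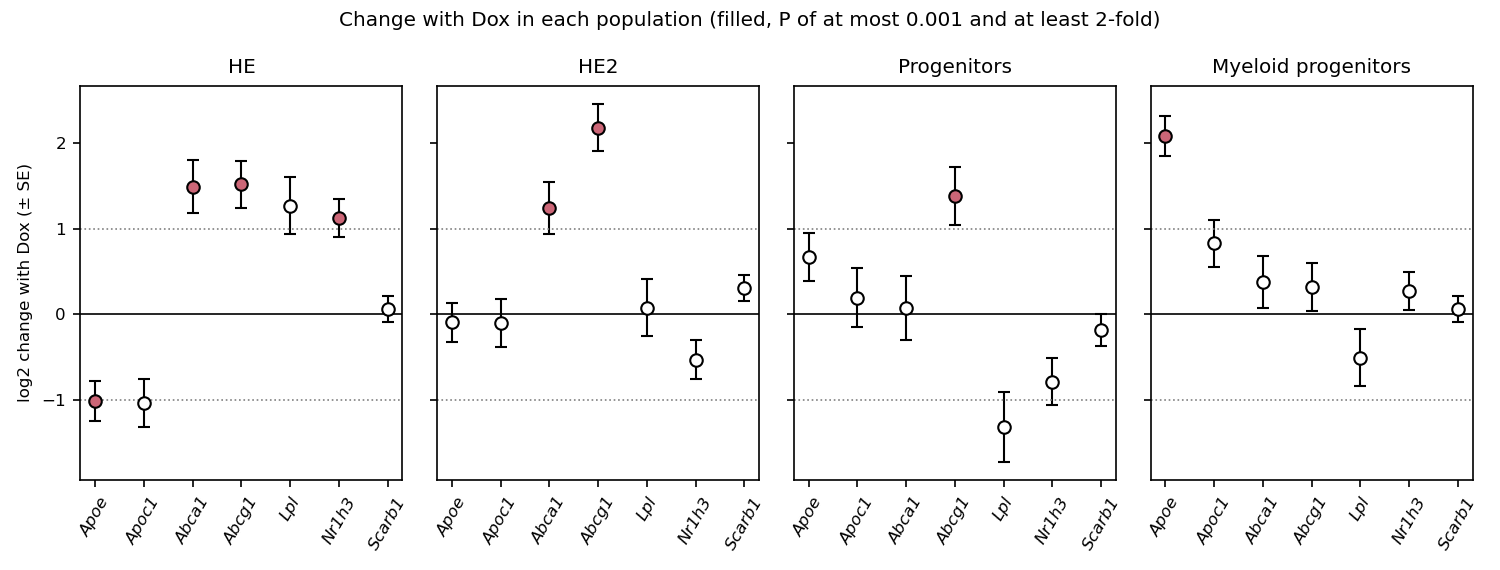
Change of the 7 genes with Dox in each population, as the log2 difference between the induced and uninduced group means, with bars of 1 standard error (SE) and filled points where P was at most 0.001 and the change at least 2-fold (dotted lines). Abcg1 lies above 1 in HE, HE2 and progenitors, and Apoe lies at -1.01 in HE and at 2.08 in myeloid progenitors.

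Apoe changed in opposite directions in HE and in myeloid progenitors. On the 3 uninduced HE arrays its log2 intensity was 15.95, 16.23 and 16.29, and on the 3 induced HE arrays it was 14.52, 15.22 and 15.70. The groups did not overlap, and the induced arrays were the more spread, with an SD of 0.59 against 0.18. Apoe fell by 1.01 (SE 0.23, adjusted P = 0.00492) in HE, by 2.02-fold, which is at the 2-fold threshold.

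In uninduced myeloid progenitors Apoe read 12.80, 13.16 and 12.82, the lowest of any group, and in induced ones 14.96, 15.19 and 14.87. Every induced array lay at least as high as 14.87 and no uninduced array above 13.16. The rise was 2.08 (SE 0.23, adjusted P = 5.56e-06), or 4.24-fold, and it was called under every alternative tried, with adjusted P between 4.44e-06 and 0.000398. The opposite changes in HE and myeloid progenitors differed by 3.09 (SE 0.33, adjusted P = 1.66e-05) by the interaction term, for which 2 of the 7 genes were called against 4.72% of all genes.

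In HE2 the 3 uninduced arrays read 15.55, 15.91 and 15.54 for Apoe and the induced 15.52, 15.48 and 15.72, and the groups overlapped. The difference was -0.09, with a 95% interval from -0.58 to 0.39. In progenitors Apoe read 15.25 and 14.93 without and 15.90 and 15.62 with Dox, a difference of 0.67 (adjusted P = 0.189) that was not called although the arrays did not overlap.

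The call of Apoe in HE depended on single arrays. The change was -0.70 (adjusted P = 0.0283) without induced HE array 1, and the call was also lost without uninduced array 2 or 3 or induced array 2 and when the fit held HE arrays alone (adjusted P = 0.116). It was -1.57 within slide 1 and -0.83 within slide 2. Mesenchyme markers fell in the same comparison, as given above.

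Across the 8 groups, Apoe was highest in uninduced HE, at 16.16 ± 0.18 (SD, n = 3), and lowest in uninduced myeloid progenitors, at 12.92 ± 0.20 (n = 3), a span of 9.41-fold. The arrays of both these groups stood apart from those of the group next to them in the order. The other 6 groups lay between 15.01 and 15.76 and each overlapped its neighbour in the order. The fall from uninduced progenitors to uninduced myeloid progenitors was 2.17 (SE 0.26, adjusted P = 6.51e-06), so that induced myeloid progenitors, at 15.01 ± 0.16 (n = 3), read close to uninduced progenitors, at 15.09 ± 0.23 (n = 2).

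Apoc1, which lies beside Apoe on chromosome 7 and encodes a small apolipoprotein that inhibits lipoprotein uptake, was dimmer on its own probe. In HE it read 9.22, 9.85 and 8.91 without and 7.78, 8.71 and 8.40 with Dox. The groups did not overlap, yet the difference of -1.03 (SE 0.28, adjusted P = 0.0158) did not pass the unadjusted threshold. It passed without uninduced array 3 or without induced array 2, and it was -1.76 within slide 1 and -0.35 within slide 2.

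In myeloid progenitors Apoc1 read 7.84, 8.02 and 7.62 without and 9.14, 8.51 and 8.31 with Dox, again without overlap. The difference was 0.83 (SE 0.28, adjusted P = 0.0573) and was not called. The difference between the responses in myeloid progenitors and HE was 1.86 (SE 0.39, adjusted P = 0.0061) and was called, in the direction seen for Apoe. Apoc1 differed by -0.10 (95% interval -0.69 to 0.48) in HE2 and by 0.20 (-0.52 to 0.92) in progenitors.

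Apoc1 followed its own order through the stages. It was highest in progenitors, at 10.65 ± 0.34 (n = 2) with and 10.45 ± 0.21 (n = 2) without Dox, and lowest in uninduced myeloid progenitors, at 7.83 ± 0.20 (n = 3). From induced HE to induced HE2 it rose by 1.49 (SE 0.28, adjusted P = 0.00294), the 1 call among the 7 genes in that step, where 3.1% of all genes were called. In that step the mesenchyme sum was lower in HE2 (13.36 to 13.46 against 15.11 to 15.56). The erythroid sum was higher (18.20 to 18.45 against 17.21 to 18.18). The part of these cells in the rise of Apoc1 was not tested. From uninduced progenitors to myeloid progenitors Apoc1 fell by 2.62 (SE 0.31, adjusted P = 6.53e-06).

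Of the other genes in the Apoe cluster, Apoc4 was not called with Dox in any population. Tomm40, which encodes the channel of the mitochondrial import machinery and borders Apoe, differed by -0.63 (adjusted P = 0.0409) with Dox in myeloid progenitors, -0.61 (adjusted P = 0.165) in progenitors, -0.63 (adjusted P = 0.0336) in HE2 and -0.73 (adjusted P = 0.0162) in HE, and was not called in any. In progenitors and in myeloid progenitors its difference had the opposite sign to that of Apoe, and in HE and HE2 the same sign.

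**Figure D2:**
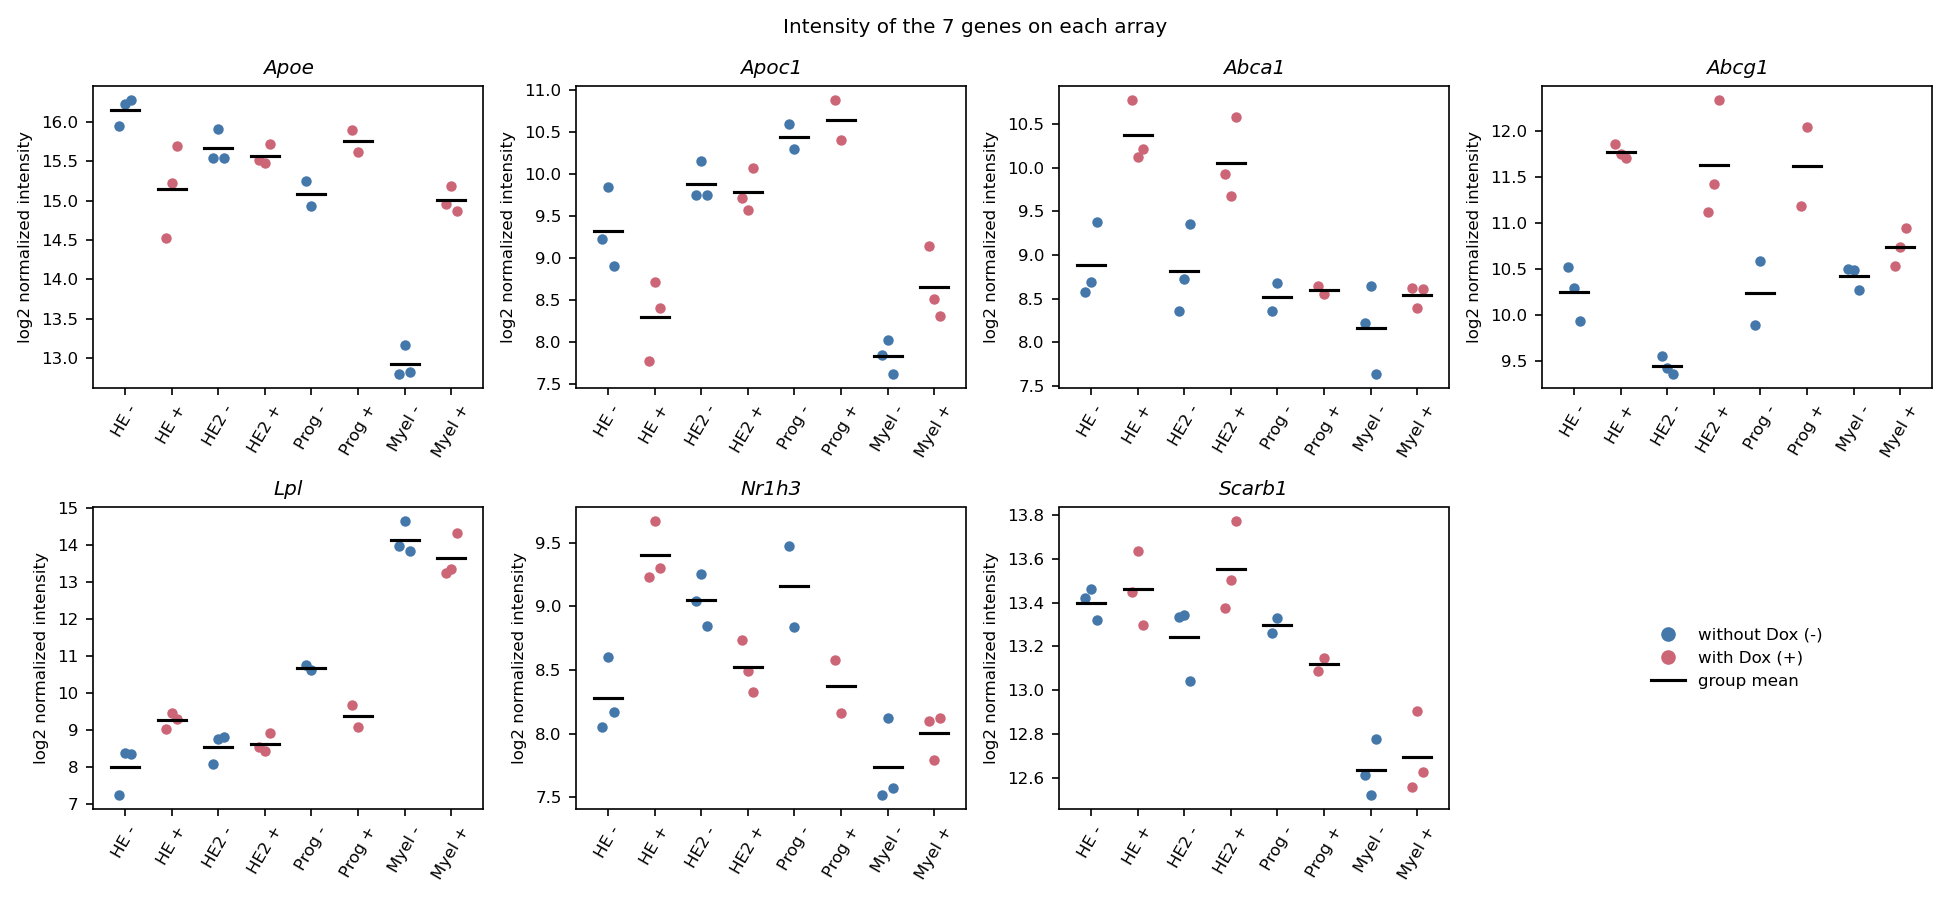
Log2 normalized intensity of each gene on each of the 22 tested arrays, with the group mean as a line, for uninduced (-) and induced (+) HE, HE2, progenitors (Prog) and myeloid progenitors (Myel). The scale differs between panels, and Apoe stands at 12.92 in uninduced myeloid progenitors against 15.01 in induced ones.

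The cholesterol exporters rose together with Dox in both endothelial populations. Abcg1, which passes cholesterol to high-density lipoprotein, read 10.53, 10.30 and 9.94 on uninduced and 11.86, 11.75 and 11.70 on induced HE arrays. In HE2 it read 9.56, 9.43 and 9.36 without and 11.12, 11.42 and 12.34 with Dox. No induced array overlapped an uninduced one in either population. Abcg1 rose by 1.52 (SE 0.28, adjusted P = 0.000835) in HE and by 2.18 (SE 0.28, adjusted P = 3.21e-05), or 4.53-fold, in HE2, and both calls stood under every alternative tried, with adjusted P of at most 0.00801 in HE and 0.008 in HE2. Within slides 1 and 2 the rise was 1.44 and 1.79 in HE and 1.63 and 2.51 in HE2.

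In progenitors Abcg1 read 9.89 and 10.59 without and 11.18 and 12.05 with Dox. The rise of 1.38 (SE 0.34, adjusted P = 0.0205) was called, on 2 arrays against 2. The call was lost without induced array 2, which lay on slide 3 (0.95, adjusted P = 0.289), and without uninduced array 1 (1.03, adjusted P = 0.204), and also with the replicate number, the slide or the scan day as a block, with separate normalization, with 75th percentile scaling and by the fit of only these groups, with adjusted P from 0.0255 to 0.299. Between the arrays on slide 1 the difference was 1.29. In myeloid progenitors Abcg1 read 10.50, 10.49 and 10.28 without and 10.54, 10.74 and 10.95 with Dox, and the difference of 0.32 (95% interval -0.26 to 0.90) was not called. The responses in progenitors and HE2 differed by -0.80 (adjusted P = 0.689) and those in myeloid progenitors and HE by -1.20 (adjusted P = 0.0812), neither of which was called, though the latter was by the fit of only these groups (adjusted P = 0.0147).

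Abcg1 was highest in 3 of the induced groups. Induced HE, HE2 and progenitors lay at 11.77 ± 0.08 (n = 3), 11.63 ± 0.63 (n = 3) and 11.62 ± 0.61 (n = 2), in overlapping ranges. The highest uninduced group was myeloid progenitors, at 10.42 ± 0.13 (n = 3). Uninduced HE2 was the lowest, at 9.45 ± 0.10 (n = 3), and did not overlap the group above it.

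Abca1, which loads cholesterol and phospholipid onto lipid-poor apolipoproteins and whose promoter window is shown above, was called in HE and HE2. In HE it read 8.58, 8.69 and 9.38 without and 10.78, 10.13 and 10.21 with Dox. In HE2 it read 8.36, 8.73 and 9.36 without and 9.93, 9.67 and 10.58 with Dox. The groups did not overlap in either, and uninduced array 3 was the highest control in both. Abca1 rose by 1.49 (SE 0.31, adjusted P = 0.00219) in HE and by 1.24 (SE 0.31, adjusted P = 0.00825) in HE2.

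Both calls of Abca1 rested on few arrays. The call in HE was lost without uninduced array 1 or induced array 1 (1.29, adjusted P = 0.0149), and that in HE2 without uninduced array 1 or 2 or induced array 1 or 3 (0.99, adjusted P = 0.0557 without array 3). By the fit of only the groups compared the call in HE was lost too. The call in HE2 was also lost with the replicate number as a block (adjusted P = 0.0104, and 0.0112 with the numbers of the deposited log2 values), with the scan day (0.0103) or the slide (1.15, adjusted P = 0.0183) as a block, with separate normalization and by the fit of only these groups (adjusted P = 0.0573). Within slides 1 and 2 Abca1 was higher with Dox by 2.15 and 0.79 in HE and by 1.39 and 0.77 in HE2.

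In progenitors Abca1 read 8.36 and 8.68 without and 8.64 and 8.55 with Dox, a difference of 0.08 with a 95% interval from -0.71 to 0.86. In myeloid progenitors it read 8.22, 8.65 and 7.64 without and 8.63, 8.40 and 8.61 with Dox, a difference of 0.38 (95% interval -0.26 to 1.02). The arrays overlapped in both. From induced HE2 to induced progenitors Abca1 fell by 1.46 (SE 0.34, adjusted P = 0.00647), the 1 call among the 7 genes in that step, where 7.36% of all genes were called, and the call was lost without induced HE2 array 3 or either induced progenitor array. The call was also lost by the fit of only these groups and with the replicate number, slide or scan day as a block. In that step endothelial markers summed lower (14.59 to 15.05 against 15.96 to 16.22). So did macrophage (11.97 to 12.27 against 12.36 to 13.50) and visceral endoderm markers (8.89 to 9.24 against 9.90 to 10.52). Taken singly, 3 of the 9 tested macrophage markers were called higher in progenitors and 1 lower. Their median change was 0.63, so that the macrophage list did not move down as a whole. Commitment markers summed higher (13.63 to 13.88 against 12.86 to 13.34). The part of these cells in the fall of Abca1 was not tested. The response in progenitors differed from that in HE2 by -1.17 (adjusted P = 0.533) and that in myeloid progenitors from that in HE by -1.11 (adjusted P = 0.165), neither of which was called, and 0 of the 7 genes were called for the difference between progenitors and HE2 by limma, against 0.645% of all genes, with 2 at an unadjusted P under 0.05.

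Nr1h3, the gene of LXRα, responded differently in HE and HE2. In HE it read 8.05, 8.60 and 8.17 without and 9.23, 9.67 and 9.30 with Dox, and the groups were apart. It rose by 1.12 (SE 0.22, adjusted P = 0.00174). In HE2 it read 9.04, 9.26 and 8.84 without and 8.74, 8.50 and 8.33 with Dox, again apart but with the induced arrays lower, a difference of -0.53 (SE 0.22, adjusted P = 0.121) that was not called.

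The responses of Nr1h3 in HE2 and HE differed by -1.65 (SE 0.32, adjusted P = 0.0181), the 1 call among the 7 genes, where 1.34% of all genes were called. Without Dox, Nr1h3 was higher in HE2 than in HE by 0.77 (SE 0.22, adjusted P = 0.0331), and with Dox it was lower by 0.88 (SE 0.22, adjusted P = 0.0252), neither of which reached 2-fold. In uninduced cells, 0 of the 7 genes were called by limma between HE and HE2, against 5.07% of all genes, and 3 had an unadjusted P under 0.05. These comparisons share arrays.

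Nr1h3 and the 2 exporters, whose genes LXRα activates, were called higher together in HE alone. By the fit of only the groups compared, Abcg1 alone of these was called in HE. Apoe, which LXRα activates too, was called lower in HE (-1.01). Of 13 other tested genes of LXR and RXR receptors, cofactors and LXR targets, limma called 0 in HE, against 7.09% of all genes. Their median change there was 0.05. The part of LXRα in these changes was not tested. In HE2, Abca1 and Abcg1 were called higher while Nr1h3 lay lower on every induced array. In progenitors Nr1h3 read 9.47 and 8.84 without and 8.58 and 8.17 with Dox (-0.78, adjusted P = 0.11), where Abcg1 rose. In myeloid progenitors Nr1h3 was lowest, at 7.74 ± 0.33 (n = 3) without and 8.01 ± 0.19 (n = 3) with Dox, a difference of 0.27 (95% interval -0.20 to 0.74), beside 0.38 for Abca1 and 0.32 for Abcg1, none of them called.

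A second probe of Nr1h3 gave 0.91 (adjusted P = 0.0217, not called) in HE and -0.35 in HE2, with the same signs. The difference between these responses was -1.25 (adjusted P = 0.144) on that probe and was not called. The call in HE on the brighter probe was also lost without induced array 2 (0.99, adjusted P = 0.0114) and by the fit of only the groups compared. On the brighter probe it was higher with Dox by 0.90 within slide 1 and by 1.31 within slide 2 in HE.

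Lpl encodes lipoprotein lipase, which releases fatty acids from lipoprotein triglyceride and is a gene of macrophages and adipocytes. It marked the stage more than the treatment. Its groups spanned 71.3-fold, from 7.98 ± 0.65 (n = 3) in uninduced HE to 14.14 ± 0.44 (n = 3) in uninduced myeloid progenitors.

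Without Dox, Lpl read 8.08, 8.74 and 8.80 in HE2, 10.75 and 10.61 in progenitors, and 13.97, 14.63 and 13.81 in myeloid progenitors. No array of one stage overlapped the next. It rose by 2.14 (SE 0.37, adjusted P = 0.000864) from HE2 to progenitors, the 1 call among the 7 genes in that step, where 5.39% of all genes were called. It rose by 3.46 (SE 0.37, adjusted P = 2.34e-06) from progenitors to myeloid progenitors. Of the 9 tested macrophage markers 2 rose and 1 fell from HE2 to progenitors as well, with a sum of 11.78 to 12.01 and 13.02 to 13.24. The erythroid sum went from 16.15 to 16.59 in HE2 to between 17.32 and 17.59 in progenitors, and the endothelial sum from 15.00 to 15.31 to between 13.79 and 13.84. Mesenchyme (14.21 to 14.64 against 14.86 to 16.65) and visceral endoderm markers (9.09 to 9.20 against 9.65 to 10.33) summed lower in progenitors. The part of these cells in the rise of Lpl was not tested. On its second probe, which was above background on 21 arrays, these rises were 1.96 (adjusted P = 0.0777, not called) and 2.70 (adjusted P = 0.00402).

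With Dox, Lpl was not called in any population, although its change in HE was close to the threshold. In HE it read 7.23, 8.38 and 8.34 without and 9.01, 9.46 and 9.29 with Dox, a difference of 1.27 (SE 0.33, adjusted P = 0.0133) without overlap. It was called without uninduced array 2 (1.47, adjusted P = 0.013), with the replicate number as a block (adjusted P = 0.0091) and with 75th percentile scaling (1.41, adjusted P = 0.0095). In progenitors it read 9.67 and 9.06 with Dox, lower by 1.31 (SE 0.41, adjusted P = 0.072) than without, again without overlap. In myeloid progenitors it read 13.24, 13.35 and 14.30 with Dox, which overlapped the uninduced arrays, and the difference was -0.50 (95% interval -1.21 to 0.20). The difference in HE2 was 0.08 (-0.62 to 0.78), and that between the responses in myeloid progenitors and HE was -1.77 (adjusted P = 0.0274, not called). That last difference was called under the same 3 settings and without induced myeloid array 3 (-2.11, adjusted P = 0.00966).

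Scarb1, which encodes the receptor SR-BI that takes cholesterol esters from high-density lipoprotein, spanned least of the 7 genes on the brighter probes. Its groups spanned 1.89-fold, between 13.12 and 13.55 in HE, HE2 and progenitors and at 12.64 ± 0.13 (n = 3) without and 12.70 ± 0.18 (n = 3) with Dox in myeloid progenitors. With Dox it differed by 0.31 (95% interval -0.01 to 0.63) in HE2, 0.06 (-0.26 to 0.38) in HE, -0.18 (-0.57 to 0.21) in progenitors and 0.06 (-0.26 to 0.38) in myeloid progenitors. From progenitors to myeloid progenitors it was lower by 0.66 (adjusted P = 0.00644), under 2-fold, while its dimmer second probe read 0.58 higher (adjusted P = 0.423), so that its 2 probes disagreed in sign there. The group means of the second probe ran from 8.92 to 10.52, a wider span than that of the second probe of Nr1h3, 7.53 to 8.81.

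**Figure D3:**
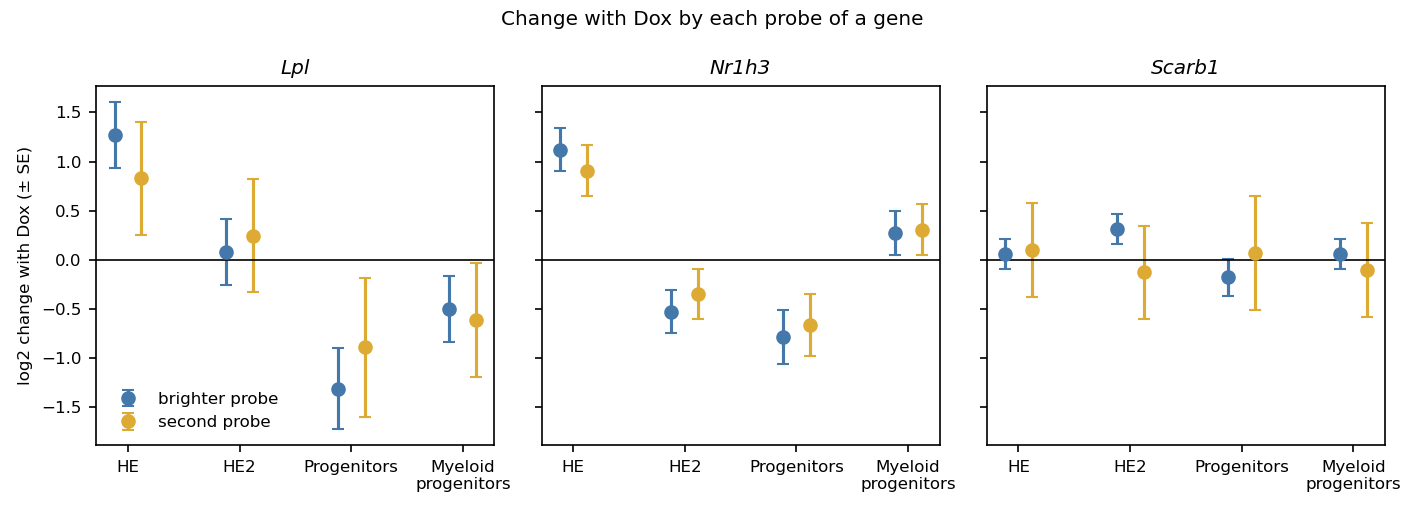
Change with Dox (log2, ± SE) on the brighter and on the second probe of the 3 genes with 2 probes. Both probes of Nr1h3 lie above 0 in HE (1.12 and 0.91) and below 0 in HE2 (-0.53 and -0.35), while those of Scarb1 lie near 0.

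The step from uninduced progenitors to uninduced myeloid progenitors changed 4 of the 7 genes, Apoe, Apoc1 and Nr1h3 lower and Lpl higher, where 13.9% of all genes were called and the median over all genes was -0.12. Nr1h3 fell by 1.42 (SE 0.25, adjusted P = 0.000337), and by 1.10 (adjusted P = 0.0152, not called) without uninduced progenitor array 1. The uninduced arrays of the 2 groups lay on different slides scanned on different days, so that for them batch and group cannot be told apart. A fit with the slide as a block, which rests on the 2 induced progenitor arrays, called Lpl alone (4.21, adjusted P = 0.00168), with Apoe at -1.80 (adjusted P = 0.0406), Apoc1 at -2.15 (adjusted P = 0.0489) and Nr1h3 at -1.11 (adjusted P = 0.205). The further array of uninduced progenitors, on the slide of the myeloid arrays, read 14.44 for Apoe, 9.94 for Apoc1, 10.38 for Lpl and 8.94 for Nr1h3, each outside the range of the uninduced myeloid arrays and on the side of the progenitors. Macrophage markers moved with this step too, with 6 of the 9 tested higher. The erythroid sum was higher in myeloid progenitors (19.44 to 19.64 against 17.32 to 17.59). Mesenchyme (10.39 to 11.39 against 14.21 to 14.64) and endothelial sums (12.74 to 13.20 against 13.79 to 13.84) were lower. The visceral endoderm sum was higher (9.91 to 10.53 against 9.09 to 9.20), where Afp read 9.43 against 7.60 and Amn 5.54 against 6.53. Higher too were the sums of commitment (14.46 to 14.70 against 13.99 to 14.38) and ES cell markers (9.60 to 9.92 against 8.42 to 8.78). Of the commitment markers 1 was called lower and 0 higher. The part of these cells in this step was not tested.

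Other genes of lipoprotein and cholesterol handling were taken from 7 lists of 91 genes, of which 78 were tested. Of these 78, 3 rose and 1 fell with Dox in HE (5.13%), 1 rose and 4 fell in HE2 (6.41%), and 1 rose and 1 fell in myeloid progenitors (2.56%), shares that lie near or below those of all genes. In progenitors limma called 0 of them, with 13 at an unadjusted P under 0.05, and 3 when induced array 1 was left out or 1 with the further array added. With 1 array left out the counts ranged from 2 (without induced array 3) to 4 in HE and from 2 (without uninduced array 1 or induced array 3) to 4 in HE2. By the fit of only the groups compared 1 was called in HE, 3 in HE2 and 1 in myeloid progenitors, and with separate normalization 2, 2 and 1. Their median change was 0.06, -0.06, -0.19 and -0.02.

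Among uptake genes, Cd36, a scavenger receptor for oxidised lipoproteins and fatty acids, passed the filter on low values only through induced arrays, and its calls in HE, HE2 and myeloid progenitors are a description. It read 5.08, 5.15 and 5.10 on uninduced HE2 arrays, none of them well above background, and 6.81, 6.79 and 7.30 on induced ones, at least 3.63-fold higher. Of the uninduced HE and myeloid arrays only 1 in each population was well above background, and their means were 5.17 and 5.61 against 6.37 and 6.91 with Dox. With a background offset of 50 Cd36 was not called in HE or in myeloid progenitors. Sorl1, a sorting receptor that binds apolipoprotein E, fell by 1.42 (SE 0.25, adjusted P = 0.000655) in myeloid progenitors, which was not called with 75th percentile scaling (adjusted P = 0.0236).

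Soat2, which esterifies cholesterol, fell by 1.54 (SE 0.29, adjusted P = 0.00112) with Dox in HE and fell by 1.57 (SE 0.29, adjusted P = 0.001) in HE2. The call in HE was lost by the fit of only the groups compared (adjusted P = 0.0281). Abca2, a transporter gene related to Abca1, fell by 1.44 (SE 0.35, adjusted P = 0.00784) in HE2, where it read 9.23, 8.80 and 9.57 without and 8.21, 8.05 and 7.01 with Dox, apart from each other. The call was lost without uninduced HE2 array 1 or 3 or induced array 3 (-1.07, adjusted P = 0.0558 without the last), with separate normalization, the mean of its probes, the fit of only these groups, or the replicate number or slide as a block, with adjusted P between 0.00657 and 0.0558 over the alternatives. Without Dox Soat2 was higher in HE2 than in HE by 1.75 (SE 0.29, adjusted P = 0.000724), and the scavenger receptor gene Olr1 was higher by 1.46 (SE 0.31, adjusted P = 0.00483), a call that was lost without any 1 of 3 arrays. Clu, an apolipoprotein gene, rose by 1.13 (SE 0.28, adjusted P = 0.01) in HE and was no longer called without any 1 of 4 of the 6 HE arrays. None of the 23 genes of cholesterol synthesis and its control by SREBP was called with Dox in any population by limma, with 1 or 2 of them in each at an unadjusted P under 0.05, and 1 was called lower in progenitors when induced array 1 was left out.

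**Figure D4:**
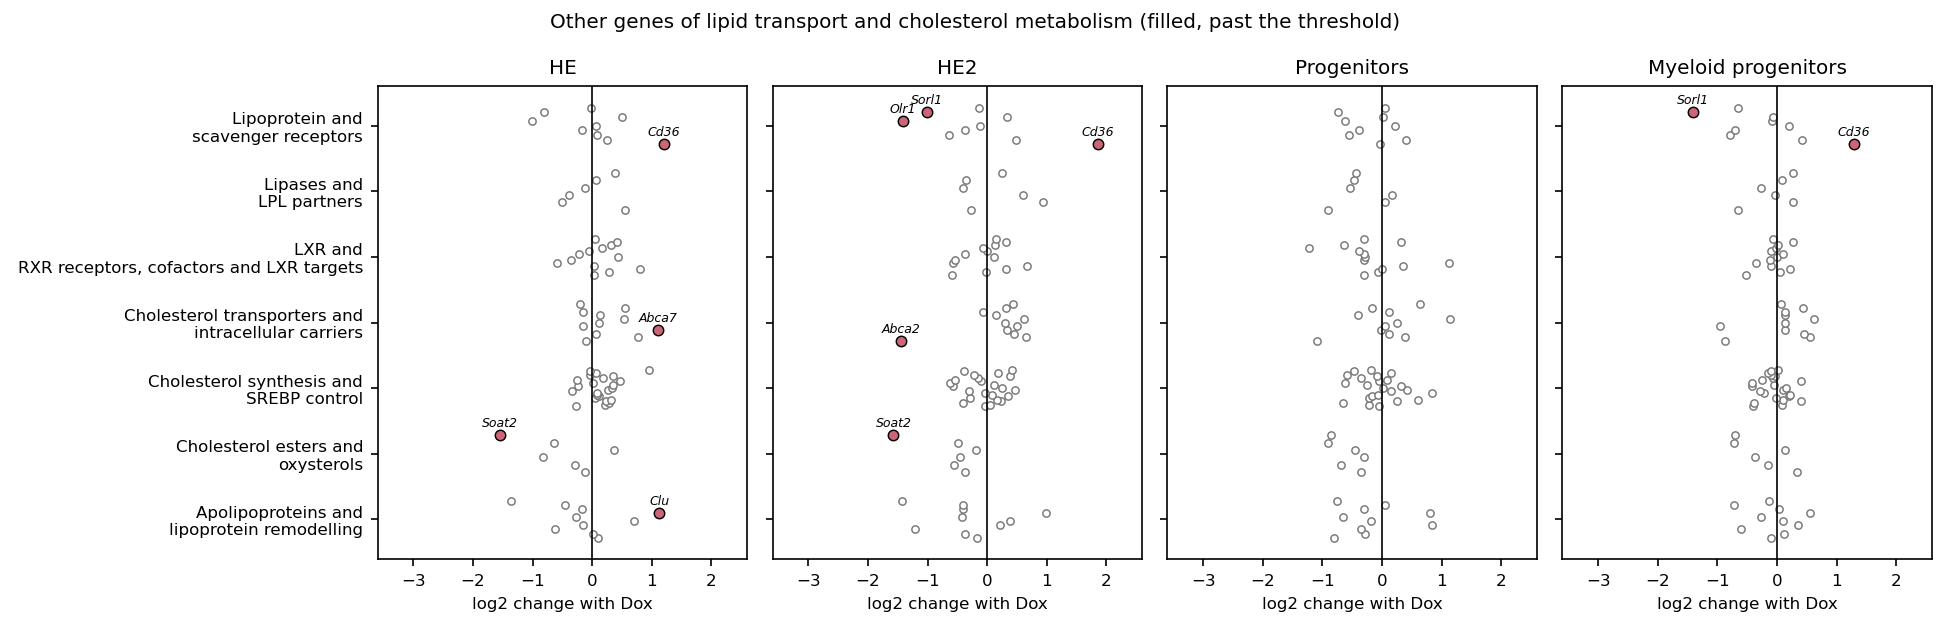
Log2 change with Dox of the 78 tested genes of the 7 lists, 1 point a gene, filled and named where P was at most 0.001 and the change at least 2-fold. Soat2 lies at -1.54 in HE and at -1.57 in HE2, and the 23 genes of cholesterol synthesis hold 0 filled points.

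From uninduced progenitors to myeloid progenitors, 7 of the 78 genes rose and 14 fell (26.9% of the list against 13.9% of all genes), with a median of -0.44. The genes below are named after their values were seen. Of the cholesterol synthesis list 9 fell, among them Dhcr7 (-2.29), Tm7sf2 (-1.91) and Hmgcs1 (-1.64), and Scd1, a fatty acid desaturase and LXR target, fell by 4.19. Those that rose included Abcg4, a sterol transporter related to ABCG1, by 4.33, Plin2, which coats lipid droplets, by 2.45, and Vldlr, a receptor for apolipoprotein E, by 2.13. With the slide as a block, 4 rose and 4 fell, 2 of them of the synthesis list.

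Over the 8 group means, the 5 genes most like Apoe among 9360 genes that spanned at least 2-fold were Zfp521, Itm2a, Bmp4, Ksr1 and Mex3a, with Pearson's r from 0.938 to 0.944. Zfp521, a zinc finger protein of immature blood cells, read 8.04 in uninduced and 9.99 in induced myeloid progenitors, and Bmp4, a signalling protein of mesoderm, read 8.98 and 11.09, so that both were lowest where Apoe was. The genes most like Lpl were Cfb, Tapbpl, Gm11545, St6galnac2 and Gsn (r from 0.990 to 0.994), of which Cfb, a complement factor, rose from 5.30 in uninduced HE to 9.69 in uninduced myeloid progenitors. These correlations are over group means of shared arrays and were chosen as the highest.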

How the data were processed

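RNA was hybridised to 23 Agilent SurePrint G3 Mouse arrays in 1 colour. The authors deposited the median intensity and local background of each spot as read by Agilent Feature Extraction, not normalized between arrays. The submitters' processing notes name version 10.7.1.1 and the file headers name 10.7.3.1 and a grid on mm9. A log2 value for each probe and array was deposited as well, background corrected and quantile normalized, and was used as an alternative. Each column belonged to a single array and 0 went unused.

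The background was corrected with normexp (offset 16) of limma 3.58.1 in R 4.3.3 on all spots. After 3671 control spots and 4423 outlier values were left out, with 0 saturated spots, the 23 arrays were quantile normalized and spots of a probe averaged. Of 55681 probes 26582 matched a symbol through the RefSeq table of GRCm38.p6, used for names and for promoter sequence only, for 20145 genes. The 15202 genes that reached a log2 intensity of 6.5 on any array were tested. The 22 arrays were fitted with 1 mean for each of the 8 groups with lmFit and eBayes, following the study's methods, with 14 residual degrees of freedom, and differences between responses to Dox were interaction terms. The number of arrays limits the precision. Induced myeloid progenitor array 3 is a biological replicate by its title and a technical replicate by its source name, and it was kept.

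The 7 genes, the lists of other pathway genes, the marker lists and the rule for named genes were chosen with earlier results of these data known. Named from the lists were up to 2 of the largest rises and falls with Dox, and between uninduced HE and HE2, among called genes whose arrays did not overlap, and, as most like Apoe and Lpl, the 5 genes with the highest correlation of group means. Named besides, after their values were seen, were 7 genes of the step from progenitors to myeloid progenitors, and Apoc4 and Tomm40 as neighbours of Apoe. A further gene of these lists is not reported here. On simulated data with a log2 change of 1.5 given to 200 of 15202 genes, 84% were recovered for Dox in myeloid progenitors, 83% in HE, 80.5% in HE2 and 73.5% in progenitors. Alternatives were another offset, raw signals, 75th percentile scaling, the deposited log2 values, separate normalization, other filters and probes, an adjusted P of 0.05, a fit of only the groups compared, replicate, slide and scan day as blocks, the further progenitor array added, and each array left out. Replicate numbers from the labels paired the arrays of uninduced HE and HE2, whose same-numbered deviations correlated at 0.394, 0.795 and 0.608, and in no other comparison of 3 against 3 arrays. Files were read with data.table version 1.17.8, and figures and promoter windows were made in python 3.11.15.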

Additional observations from a re-analysis of the deposited data

Results flagged for a closer look

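Responses to Dox that differed between populations by the interaction term are repeated here for a closer look, as log2 differences from limma. For Apoe the response in myeloid progenitors exceeded that in HE by 3.09 (adjusted P = 1.66e-05), and it was between 2.78 and 3.37 with each array left out in turn. For Apoc1, its neighbour, the difference was 1.86 (adjusted P = 0.0061), although neither of its own changes with Dox was called. For Nr1h3 the response in HE2 was below that in HE by -1.65 (adjusted P = 0.0181), and the second probe gave -1.25 (adjusted P = 0.144, not called).

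Among the other genes of the lists, the responses of Cd36 in progenitors and HE2 gave a difference of -1.89 (adjusted P = 0.0483). Both progenitor groups and uninduced HE2, at 5.20, 5.16 and 5.11, had no array well above background, and the gene passed the filter only through induced arrays, so that this value is no support for a difference.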

How the results depend on the processing

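Of the calls above, those of Apoe in myeloid progenitors and of Abcg1 in HE and HE2 stood under every alternative and with every array left out. Counts of called genes among the 7 moved as follows. A fit of only the groups compared, with fewer arrays behind the spread, called 1 gene in HE, 1 in HE2, 0 in progenitors and 0 from HE2 to progenitors with Dox. In HE2 the count was 1 with separate normalization, the slide or the scan day as a block. In progenitors it was 0 with the 75th percentile, separate normalization, the slide or the scan day as a block. Both these blocks gave 0 from HE2 to progenitors with Dox and 1 from progenitors to myeloid progenitors. An adjusted P of 0.05, with no limit on the fold change, gave 1 between HE and HE2 without and 2 with Dox, 6 against 4 in HE, 5 against 4 from progenitors to myeloid progenitors and 3 against 2 for the difference between myeloid progenitors and HE. The second probes gave 0 from HE2 to progenitors without Dox and 0 for the difference between HE2 and HE, and the count in HE lost Nr1h3. With each array left out in turn the counts ranged from 2 to 4 in HE, 1 to 2 in HE2, 0 to 1 in progenitors, 0 to 1 from HE2 to progenitors with Dox and 1 to 2 for the difference between HE2 and HE. They also ranged from 2 to 3 for the difference between myeloid progenitors and HE. For the step from progenitors to myeloid progenitors the range was 3 to 4. The cause of these changes was not tested.

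With the replicate number as a block the counts were 1 in HE2, 0 in progenitors and 0 from HE2 to progenitors with Dox, and no count moved in the paired comparison of uninduced HE and HE2. In the deposited log2 values, arrays 2 and 3 of induced HE, HE2 and myeloid progenitors each matched the intensities of the other number of their group best. With those numbers, same-numbered deviations correlated at 0.361, 0.606 and 0.486 in HE2 with and without Dox and at 0.212, 0.128 and 0.263 in myeloid progenitors, so that they pair these arrays. In HE with and without Dox those numbers gave -0.055, -0.204 and -0.360. Between induced HE and induced HE2 they gave 0.191, -0.012 and -0.476, so that they paired the arrays in neither comparison. A block with those numbers, chosen after seeing the data, also gave 1 in HE2.

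Signs turned only for changes that were not called. For Scarb1 the second probe gave -0.13 in HE2, 0.070 in progenitors, -0.10 in myeloid progenitors, 0.25 from HE to HE2 without Dox, 0.96 from HE2 to progenitors with Dox, 0.58 from progenitors to myeloid progenitors, and -0.23 and 0.20 for the differences of HE2 from HE and of progenitors from HE2. The mean of its probes gave -0.022 in myeloid progenitors, 0.046 from HE to HE2 without Dox and 0.26 from HE2 to progenitors with Dox. The 75th percentile gave Scarb1 -0.11 in HE, -0.087 in myeloid progenitors, -0.067 from HE2 to progenitors without Dox and 0.023 for the difference of myeloid progenitors from HE, and the further progenitor array gave -0.043 from HE2 to progenitors without Dox. Lpl in HE2 was -0.014 with the slide as a block. From HE2 to progenitors with Dox, Abcg1 was 0.014 with the replicate block and Nr1h3 0.046 on its second probe and 0.061 with the scan day as a block. From progenitors to myeloid progenitors Abcg1 was -0.055 with the 75th percentile, -0.62 with the slide and -0.68 with the scan day as a block. With each array left out in turn, sign also turned for these, with the lowest and highest log2 change. With Dox in HE2, Apoc1 lay between -0.24 and 0.033, Apoe lay between -0.17 and 0.027 and Lpl lay between -0.15 and 0.21. With Dox in HE, Scarb1 lay between -0.027 and 0.14. With Dox in myeloid progenitors, Scarb1 lay between -0.045 and 0.13. With Dox in progenitors, Abca1 lay between -0.083 and 0.23 and Apoc1 lay between -0.046 and 0.44. For the response in HE2 against HE, Abca1 lay between -0.51 and 0.026. For the response in myeloid progenitors against HE, Scarb1 lay between -0.11 and 0.086. For the response in progenitors against HE2, Nr1h3 lay between -0.57 and 0.060. From HE to HE2 with Dox, Abcg1 lay between -0.50 and 0.11 and Scarb1 lay between -0.019 and 0.18. From HE to HE2 without Dox, Abca1 lay between -0.34 and 0.18. From HE2 to progenitors with Dox, Abcg1 lay between -0.44 and 0.42 and Nr1h3 lay between -0.36 and 0.061. From HE2 to progenitors without Dox, Nr1h3 lay between -0.21 and 0.43 and Scarb1 lay between -0.045 and 0.11. From progenitors to myeloid progenitors without Dox, Abcg1 lay between -0.16 and 0.53.

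Over all genes, these counts of calls moved by over 1.5 times. In HE with Dox 1078 genes were called, with 636 by the fit of only the groups compared and 2379 at an adjusted P of 0.05, and in HE2 1098, with 718 and 2610. In progenitors 567 were called, with 216 by the fit of only these groups, 331 with the slide and 349 with the scan day as a block, and in myeloid progenitors 960, with 2096 at an adjusted P of 0.05. From HE to HE2 the 770 calls without and 471 with Dox became 465 and 286 by the fit of only these groups and 1613 and 862 at an adjusted P of 0.05. From HE2 to progenitors the adjusted P gave 1243 against 820 without Dox and 2148 against 1119 with Dox, where the fit of only these groups gave 423 and the slide as a block 741. From progenitors to myeloid progenitors the 2118 calls became 5031 at an adjusted P of 0.05, 574 with the slide and 582 with the scan day as a block. For the difference of HE2 from HE the 203 calls became 126 by the fit of only these groups and 135 at an adjusted P of 0.05, and for that of progenitors from HE2 the 98 calls became 46 and 22, and 64 with the slide as a block or with separate normalization. Leaving out an array moved the 567 calls in progenitors to 332 without uninduced array 2, 888 without induced array 1 and 349 without induced array 2, the 98 for the difference of progenitors from HE2 to 55 and 310 without the first and the second of these and 62 without uninduced HE2 array 1, the 770 from HE to HE2 without Dox to 498 without uninduced HE2 array 3, and the 820 from HE2 to progenitors without Dox to 517 without uninduced progenitor array 2. The 75th percentile shifted the median of all genes by -0.18 with Dox in progenitors and by -0.19 from progenitors to myeloid progenitors. It moved the share of higher calls from 47.3% to 61.2% between uninduced and from 52.4% to 67.5% between induced HE and HE2, from 50.2% to 37.4% from progenitors to myeloid progenitors and from 46.8% to 33.1% for the difference of HE2 from HE.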
